A study of Mus musculus with 5 samples.

Results

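Of 21521 protein-coding mouse genes, 8 held 11 or more sites in a list of EBF1-bound positions from pro-B cells, and 6 of these 8 are described here: Zmiz1, Cyth1, Med13l, Cmip, Hivep3 and Pde2a. EBF1 is a transcription factor that sets up the B-lymphocyte lineage, and pro-B cells are an early stage of that lineage. The genes were chosen by their number of sites in this list. A site counted for the RefSeq GRCm38 coding gene around its centre or, for a centre between genes, for the closest coding gene up to 100 kb away. The 6 genes together took 70 of the 7494 listed sites. The other 2 genes at or above 11 sites were Cux1 with 13 and Myl10 with 12. Genes with 11 or more sites made up 0.0372% of coding genes, and as this number chose the genes it is a description without a test.

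The series holds 5 mouse ChIP-seq libraries from pro-B cells, made from Ebf1-/- fetal liver cells into which EBF1 had been brought by transduction. The groups, of 1 library each, are the input for the EBF1 ChIP (genotype EBF1 wt), the EBF1 ChIP with EBF1 wt, the EBF1 ChIP with EBF1 YmA, the input for the BRG1 ChIP (EBF1 wt) and the BRG1 ChIP with EBF1 YmA. All groups share the loss of endogenous Ebf1, and the labels do not name the vector or the number of cultures. Only the list given for the EBF1 ChIP with EBF1 wt entered, and the other 4 libraries were not analysed here. The list has 1 row per site with a position and a class, which is YmA-dep, YmA-ind or CTD-ind. Every site is 300 bp wide, and no height, score or read count stands beside it. The strength of a site and the depth behind it are thus unknown, and there is no replicate. The sources used here do not say how the classes were set, and the class names serve as labels only. The list holds no expression values, so the labelled cell type could not be checked against marker genes.

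EBF1 binds DNA as a dimer at a palindrome whose arms are read by its DNA-binding domain. It acts as a pioneer factor, able to bind at genes in closed chromatin and to open them. Its sites in B-lineage cells lie at promoters and at distal elements within and between genes. The 6 genes encode proteins of unrelated kinds: a coactivator of transcription, a subunit of Mediator, a zinc finger DNA-binding protein, an exchange factor for small GTPases, a signalling adaptor and an enzyme of cyclic nucleotide breakdown.

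Most sites of these genes lay within the gene itself. Of the 70, 58 (82.9%) were centred inside, 10 upstream and 2 downstream in the direction of transcription. At other genes 59.4% of assigned sites were inside. At Cux1 and Myl10, also at or above 11 sites, 6 of 13 and 2 of 12 were inside. A high inside share was thus not shared by all genes with as many sites. All 11 sites of Hivep3 and all 11 of Pde2a were inside, against 11 of 13 at Zmiz1, 10 of 12 at Cyth1, 9 of 11 at Cmip and 6 of 12 at Med13l. Inside the 6 genes there were 4.84 sites per 100 kb, against 0.410 over the bodies of all coding genes. The genes were chosen for many sites, so nothing is read from this difference. By gene the density was 12.1 per 100 kb at Pde2a and 11.8 at Cyth1, 5.27 at Zmiz1, 4.401 at Cmip, 2.93 at Med13l and 2.72 at Hivep3. The genes differed in length from 84.4 kb (Cyth1) to 404 kb (Hivep3), and long genes had sites more often. Of all coding genes 19.6% had a site and 0.869% had 5 or more. Among 1391 other coding genes of a length near that of Pde2a (72.9 to 114 kb), 31.2% had a site and 32 (2.30%) had 5 or more. Among 276 near the length of Hivep3 (323 to 505 kb), 36.6% had a site and 12 (4.35%) had 5 or more. The part of length in the numbers at the 6 genes was not tested.

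**Figure D1:**
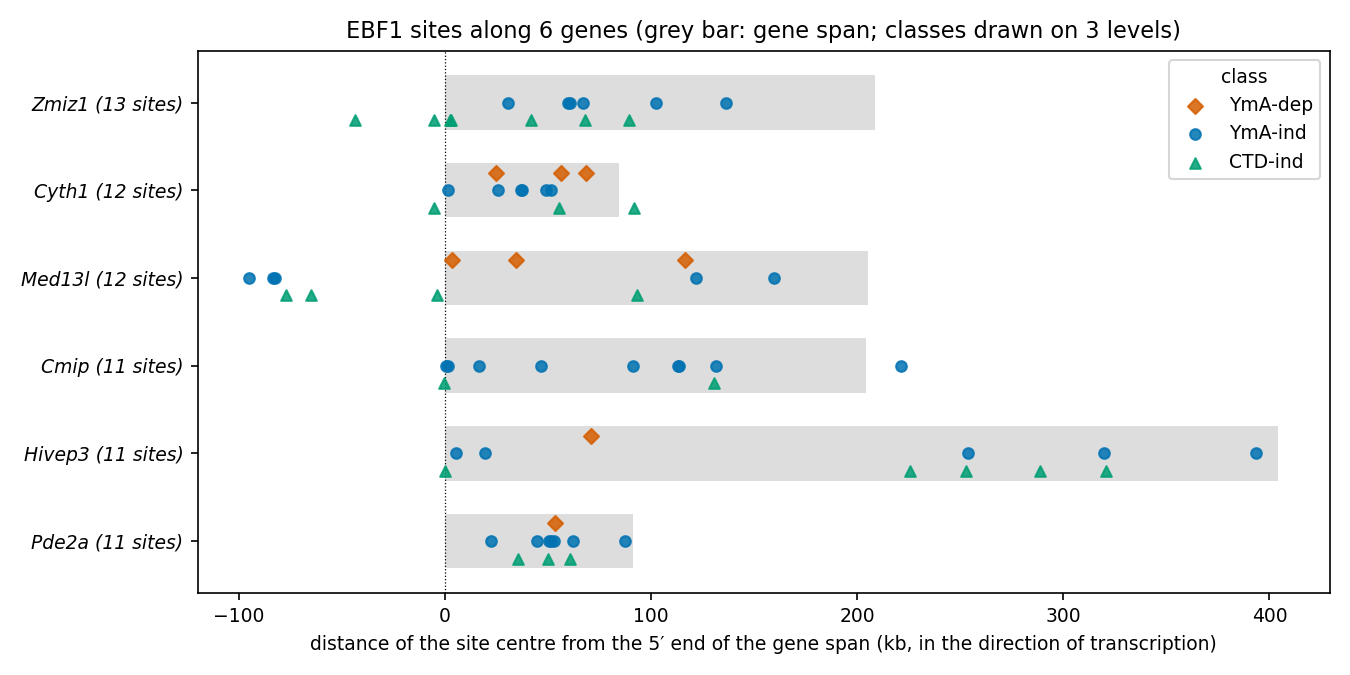
Position of each EBF1 site centre along the 6 genes, in kb from the 5′ end of the gene span in the direction of transcription. Grey bars are gene spans and symbols give the class; 6 of the 12 Med13l sites lie upstream, while all sites of Hivep3 and Pde2a lie inside.

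Zmiz1 encodes a PIAS-like coactivator with a Miz-type zinc finger and is known as a partner of Notch1. The gene (gene ID 328365) lies on the plus strand of chromosome 14 from 25457875 to 25666743 and had 13 sites, 7 CTD-ind, 6 YmA-ind and 0 YmA-dep. Read along the gene, it opened with 4 CTD-ind sites, centred at 25414308, 25452869, 25460385 and 25461090. The pair upstream lay 43.6 and 5.01 kb before the gene span, and the pair inside lay 1.20 and 1.91 kb past the annotated transcript start. The first of the 13 sites lay within Gm32645, a long non-coding RNA gene. A YmA-ind site at 25488491 and a CTD-ind site at 25499716 came next. A group of 4 sites followed at 25517411, 25518760 and 25524909 (YmA-ind) and 25526034 (CTD-ind). The last sites were CTD-ind at 25547045 and YmA-ind at 25560152 and 25594099. Of the 11 sites inside, 10 lay in the first 50% of the gene, and the last site lay at 65.2% of its length. The hairpin of the microRNA gene Mir3075 lies within Zmiz1 and was 8.45 kb from the nearest site.

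The last Zmiz1 site, YmA-ind on chromosome 14 (25593950 to 25594249), is shown by sequence because it is the only one of the 70 that overlaps a promoter window of the RefSeq table. The window belongs to Gm32497, a long non-coding RNA gene on the minus strand inside Zmiz1. The site covers 298 of the 300 bases of the window, and its centre lies 98 bp upstream of the Gm32497 start. The RefSeq sequence of the window (GRCm38.p6, minus strand, chr14:25593952-25594251) reads, 5′ to 3′:
Gm32497 window: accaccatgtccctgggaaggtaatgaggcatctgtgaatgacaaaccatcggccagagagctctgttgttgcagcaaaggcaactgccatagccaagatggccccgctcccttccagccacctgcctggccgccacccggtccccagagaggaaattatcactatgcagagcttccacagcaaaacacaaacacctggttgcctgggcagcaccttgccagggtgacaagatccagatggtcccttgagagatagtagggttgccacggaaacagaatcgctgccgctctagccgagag
The letters CCCNNGGG, the core of the EBF1 palindrome, do not occur in it in an exact match, so no base is set in capitals. This motif reads the same on either strand. Over all 32851 promoter windows of the table, 13.7% held CCCNNGGG. Among the 186 listed sites that overlapped a window by 250 bases or more, 107 (57.5%) held it in the overlap. By class, CCCNNGGG was in 80 of 128 CTD-ind, 23 of 53 YmA-ind and 4 of 5 YmA-dep overlaps. A match is a description of letters and not evidence of binding.

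Cyth1 encodes cytohesin-1, an exchange factor that activates ARF GTPases and takes part in integrin adhesion of leukocytes. The gene (gene ID 19157) lies on the minus strand of chromosome 11 from 118164170 to 118248616 and had 12 sites, 6 YmA-ind, 3 CTD-ind and 3 YmA-dep. In the direction of transcription a CTD-ind site came first, at 118254024, 5.41 kb upstream. A YmA-ind site at 118246919 lay 1.64 kb past the most upstream annotated start. A cluster of 9 sites then ran over 44.1 kb of the gene body (118179889 to 118223998). It began with a YmA-dep site at 118223848, followed by 5 YmA-ind sites at 118222830, 118211865, 118211218, 118199417 and 118197205. A CTD-ind site at 118193145 and YmA-dep sites at 118192361 and 118180038 ended it. A CTD-ind site at 118156587, 7.58 kb downstream, closed the series. The outermost sites on both sides were thus CTD-ind and lay outside the gene, while the 3 YmA-dep sites lay inside. Of the 3 annotated Cyth1 starts, the internal ones at 118212731 and 118202730 had a YmA-ind site 866 and 3313 bp downstream. The 2 most upstream Cyth1 sites also formed a cluster of 4 with 2 YmA-ind sites of the neighbouring gene Usp36.

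Med13l encodes a subunit of the kinase module of Mediator, the complex that links transcription factors to RNA polymerase II. The gene (gene ID 76199) lies on the plus strand of chromosome 5 from 118560330 to 118765438 and had 12 sites, 5 YmA-ind, 4 CTD-ind and 3 YmA-dep. Upstream came 3 YmA-ind sites at 118465580, 118476793 and 118478198 and then 3 CTD-ind sites at 118483097, 118495390 and 118556691. The first 5 of these formed a cluster of 30.1 kb between 64.9 and 94.8 kb before the gene. Inside came YmA-dep sites at 118563713 and 118594729, a CTD-ind site at 118653638, a YmA-dep site at 118676782 and YmA-ind sites at 118682174 and 118719939. The upstream cluster was given to Med13l because it was the nearest coding gene. Genes that are not coding lay nearer. The first cluster site was 3531 bp from the Gm30746 start, and the last was 2760 bp from the Gm46921 start. With all annotated genes admitted, Med13l had 7 sites. The next coding gene on that side, Spring1, lay 297 kb from Med13l and had 4 sites of its own, 0 of them inside. With a limit of 50 kb Med13l had 7 sites, and with sites inside the gene only it had 6. Its place among the genes with the most sites therefore rested on the upstream cluster.

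Cmip encodes the c-Maf-inducing protein, an adaptor described in T-cell signalling. The gene (gene ID 74440) lies on the plus strand of chromosome 8 from 117257019 to 117461506 and had 11 sites, 9 YmA-ind, 2 CTD-ind and 0 YmA-dep. Its start was enclosed by sites. A CTD-ind site at 117256502 was centred 517 bp upstream of the start, and YmA-ind sites at 117257433 and 117258797 lay 414 bp and 1.78 kb downstream. These 3 sites made up a cluster 2.60 kb long. The next 5 sites, at 117273783, 117303824, 117348102, 117370214 and 117370778, were YmA-ind as well, which made a run of 7 sites of this class, the longest run of 1 class in the 6 genes. A CTD-ind site at 117387802 and YmA-ind sites at 117388623 and 117478315 followed, the last one 16.8 kb downstream of the gene. The stretch of 89.7 kb between the last pair held no site. It includes the hairpins of Mir7077 and Mir7078, 25.3 and 19.0 kb from the nearest site. Beyond the last Cmip site lies Plcg2, whose start was 19960 bp from that site, not much farther than Cmip. Plcg2 encodes a phospholipase of B-cell receptor signalling and had 5 sites of its own, 3 inside and 2 outside the gene. With a limit of 10 kb, which leaves out the last Cmip site, Cmip had 10 sites.

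The 2 annotated Cmip promoters are shown because sites flank the first and lie near the second. No site overlaps either window. The first window lies between a CTD-ind and a YmA-ind site, 215 bp from the latter. At the second, the YmA-ind site on chromosome 8 (117347953 to 117348252) is centred 1068 bp upstream of the start. The 250 bases before each start (RefSeq, GRCm38.p6, plus strand, chr8:117256769-117257018 and chr8:117348920-117349169) read, 5′ to 3′, with exact CCCNNGGG matches in capitals:
Cmip first promoter: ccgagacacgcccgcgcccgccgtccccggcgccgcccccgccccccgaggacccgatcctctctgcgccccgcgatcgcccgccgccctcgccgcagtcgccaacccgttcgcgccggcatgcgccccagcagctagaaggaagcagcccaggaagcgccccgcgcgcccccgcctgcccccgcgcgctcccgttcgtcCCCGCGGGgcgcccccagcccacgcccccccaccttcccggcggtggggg
Cmip second promoter: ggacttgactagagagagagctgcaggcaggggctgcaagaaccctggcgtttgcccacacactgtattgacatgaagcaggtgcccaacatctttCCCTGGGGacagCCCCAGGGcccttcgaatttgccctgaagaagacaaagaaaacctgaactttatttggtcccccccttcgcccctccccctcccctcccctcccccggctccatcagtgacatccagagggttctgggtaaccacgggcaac
The first held 1 match, CCCGCGGG, beginning 50 bases before the start. The second held CCCTGGGG and CCCCAGGG, beginning 154 and 142 bases before the start. Of the 13 promoter windows of the 6 genes 3 held CCCNNGGG, those of Cmip and the single one of Med13l (CCCTCGGG, 49 bases before the start). Over all promoter windows of the table the share was 13.7%, and nothing is read from the count of 3. The first Cmip window and the Med13l window had 83.7% and 84.7% G or C bases.

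Hivep3 encodes a large zinc finger protein of the ZAS family, also called Schnurri-3, that binds kappa-B-like DNA motifs and V(D)J recombination signals. The gene (gene ID 16656) lies on the plus strand of chromosome 4 from 119733759 to 120138045 and had 11 sites, 5 CTD-ind, 5 YmA-ind and 1 YmA-dep. The classes alternated more than at the other genes, with 9 runs among 11 sites. The first site, CTD-ind at 119733894, was centred 135 bp inside the 5′ end of the gene span, a position without an annotated start in the promoter table. YmA-ind sites at 119739436 and 119753378 and the YmA-dep site at 119804671 followed, the latter 10.0 kb before the annotated start. After a gap of 155 kb, the widest in the 6 genes, came CTD-ind sites at 119959509 and 119986769 and a YmA-ind site at 119987467. The last sites were CTD-ind at 120022635, YmA-ind at 120053412, CTD-ind at 120054338 and YmA-ind at 120127436, the last at 97.4% of the gene. No site of Hivep3 was in a cluster of 3 or more with gaps under 12500 bp.

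Pde2a encodes the cGMP-stimulated phosphodiesterase that breaks down cAMP and cGMP. The gene (gene ID 207728) lies on the plus strand of chromosome 7 from 101421691 to 101512829 and had 11 sites, 7 YmA-ind, 3 CTD-ind and 1 YmA-dep. A YmA-ind site at 101444204 stood alone, 6316 bp before the nearest of the 5 annotated starts. A cluster of 9 sites then ran over 27.0 kb (101456858 to 101483820). It opened with a CTD-ind site at 101457007, 945 bp past the most downstream annotated start. The next were YmA-ind at 101466333, CTD-ind at 101471627 and YmA-ind at 101472398, 101473403 and 101474709. The YmA-dep site at 101475336, a CTD-ind site at 101482535 and a YmA-ind site at 101483670 ended the cluster. The last site, YmA-ind at 101509275, lay at 96.1% of the gene. Within the cluster the 5 sites from 101471627 to 101475336 followed each other at 0.771, 1.00, 1.31 and 0.627 kb.

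The YmA-dep site of Pde2a (chromosome 7, 101475187 to 101475486) contained the whole hairpin of the microRNA gene Mir139, which lies within Pde2a on the same strand. The hairpin (101475376 to 101475443) begins 189 bases after the first base of the site and ends 43 bases before its last. It is shown because its bases are bases of the site, and it was singled out after the positions were seen. The RefSeq sequences (GRCm38.p6, plus strand, written as RNA, chr7:101475376-101475443) have the mature arms in capitals in the hairpin and the seed, bases 2 to 8, in capitals in each arm:
Mir139 hairpin: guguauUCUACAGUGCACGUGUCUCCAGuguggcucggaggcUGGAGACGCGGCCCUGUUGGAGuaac
mmu-miR-139-5p: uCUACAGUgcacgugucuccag
mmu-miR-139-3p: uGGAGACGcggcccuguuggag
The seeds of the arms, CUACAGU and GGAGACG, differ. The hairpin contained no exact CCCNNGGG, and the other 232 bases of the site were not read here. Of 1005 hairpins in the RefSeq table, 3 (0.299%) lay whole inside a listed site, and the other 2 were in CTD-ind sites. Of the 4 hairpins inside the 6 genes, Mir139 was the only one in a site.

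The 70 sites had nearly the class make-up of sites at other genes. Of the 70, 38 (54.3%, exact 95% interval 41.9 to 66.3%) were YmA-ind, 24 (34.3%, 23.3 to 46.6%) CTD-ind and 8 (11.4%, 5.07 to 21.3%) YmA-dep. Among the 7012 sites assigned to other genes, 53.6% were YmA-ind, 11.2% YmA-dep and 35.2% CTD-ind. The intervals are Clopper-Pearson intervals, cover counting error only, and treat as separate the sites of 1 gene, which share their source.

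Between the genes the classes varied. The CTD-ind share ran from 18.2% (2.28 to 51.8%) at Cmip to 53.8% (25.1 to 80.8%) at Zmiz1, and the YmA-ind share from 41.7% (15.2 to 72.3%) at Med13l to 81.8% (48.2 to 97.7%) at Cmip. With 11 to 13 sites per gene these intervals overlap. Cyth1 and Med13l had 25.0% YmA-dep sites each, and Hivep3 and Pde2a 9.09% each. The 0 YmA-dep sites at Zmiz1 and Cmip have exact intervals that reach 24.7% and 28.5%, and these overlap the intervals of the other genes. Of the 22 genes with 9 or more sites, 10 had no YmA-dep site and 11 had all classes.

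**Figure D2:**
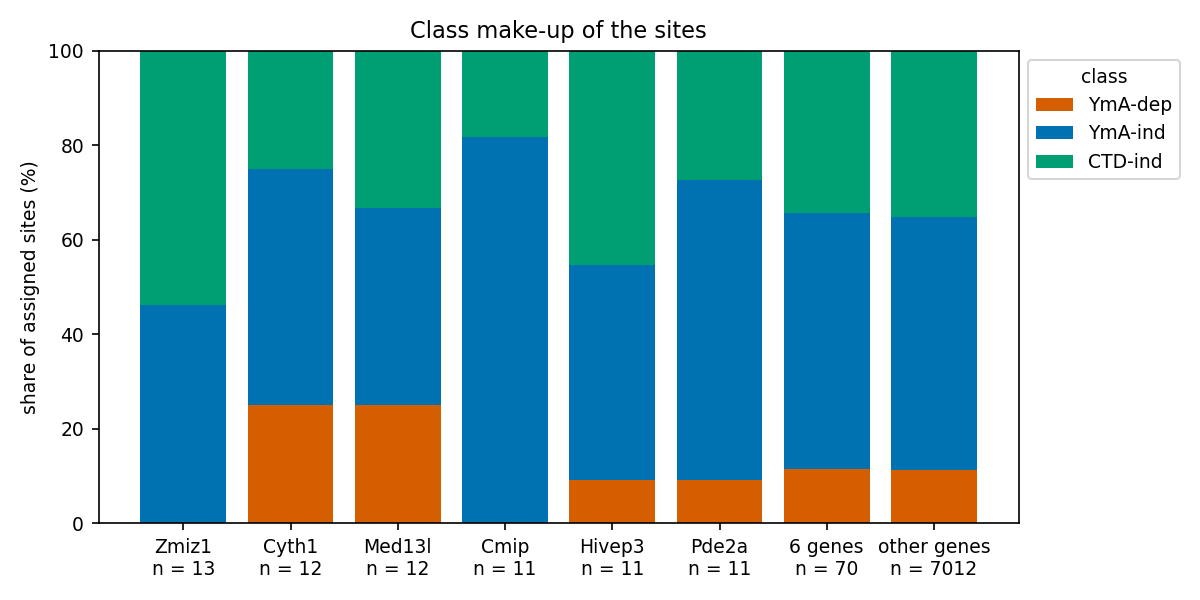
Share of each class among the sites of each gene, of the 6 genes together and of other genes, in percent of assigned sites, with the number of sites under each bar. The 6 genes together stand at 54.3% YmA-ind, 11.4% YmA-dep and 34.3% CTD-ind, close to the bar of other genes, while Zmiz1 and Cmip have no YmA-dep site.

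By count, CTD-ind sites were most frequent outside the genes and YmA-ind sites inside, a difference that was not tested. Outside, 8 of 12 (66.7%, 34.9 to 90.1%) were CTD-ind, 4 YmA-ind and 0 YmA-dep, for which the exact interval reaches 26.5%. Inside, 16 of 58 (27.6%, 16.7 to 40.9%) were CTD-ind, 34 (58.6%) YmA-ind and 8 (13.8%) YmA-dep. At other genes the CTD-ind share was 35.5% outside and 34.9% inside. The 2 intervals at the 6 genes overlap between 34.9 and 40.9%, and 5 of the 12 outside sites come from the Med13l upstream cluster, 2 of them CTD-ind.

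Pooled over the 6 genes, inside sites were fewest towards the 3′ end, but this did not hold at each gene. Of the 58 inside sites, 30 (51.7%, 38.2 to 65.0%) lay in the first 50% of the gene, against 51.3% of 1312 sites inside other coding genes at least as long as Cyth1. Cut into 4 stretches of equal length from the 5′ end, the 6 genes had 16, 14, 22 and 6 sites. The last stretch held 10.3% of their sites, against 24.7% at those other genes. By gene it held 0 sites at Zmiz1 and Cmip, 1 each at Cyth1, Med13l and Pde2a, and 3 of 11 at Hivep3. At Cyth1 and Pde2a the first stretch held as few sites as the last, and at Med13l the second did. The difference of the last stretch from other genes was not tested. Zmiz1 sites leaned to the 5′ side, with a median at 29.1% of the gene. Hivep3 and Pde2a sites leaned to the 3′ side, with medians at 62.6% and 56.7%. In the first 50% of the gene lay 4 of 11 sites at Hivep3 and 3 of 11 at Pde2a.

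Few sites of these genes lay at transcript starts. Within 1 kb of an annotated start of any gene in the RefSeq promoter table lay 5 of 70 sites (7.14%, 2.36 to 15.9%), against 16.2% at other genes. The 5 were 2 at the first Cmip start, and 1 each at an internal Cyth1 start, the most downstream Pde2a start and the Gm32497 start. Of CTD-ind sites 2 of 24 (8.33%, 1.03 to 27.0%) lay there, against 29.9% at other genes. This share fell with the number of sites per gene, from 41.3% at genes with 1 site through 23.5% (2 to 4 sites) and 15.0% (5 to 8) to 9.09% at the other genes with 9 or more. The 6 genes thus stood beside the other genes with 9 or more sites, most of which had 9 or 10. The first Hivep3 site (CTD-ind) lay 135 bp inside the 5′ end of the gene span. The promoter table has no start there, so this site was not counted. How often this holds at other genes was not checked.

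**Figure D3:**
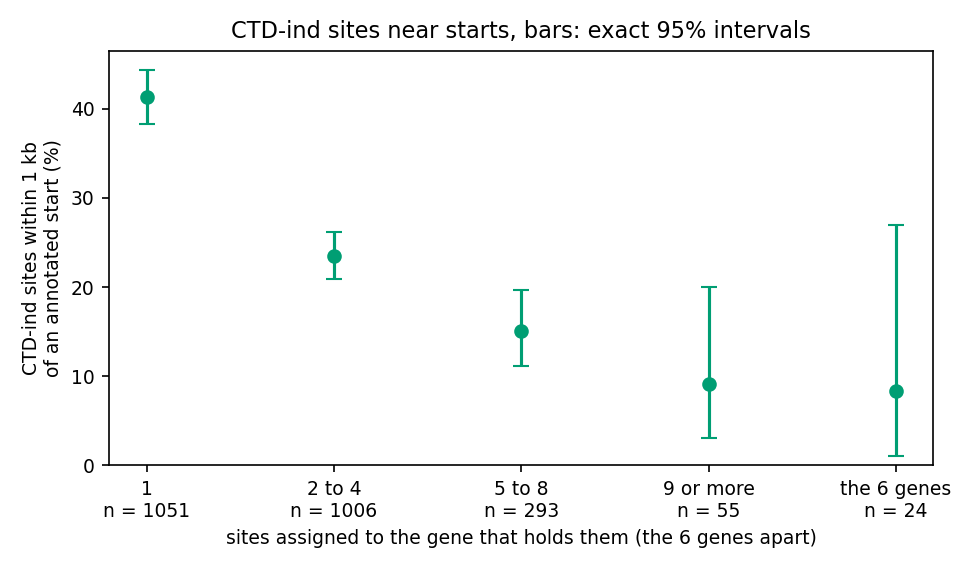
Share of CTD-ind sites within 1 kb of an annotated transcript start, in percent with exact 95% intervals, by the number of sites of the gene they are assigned to, with the 6 genes apart. The share is 41.3% at genes with 1 site and 8.33% at the 6 genes, whose interval includes the 9.09% of other genes with 9 or more sites.

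The spacing of neighbouring sites ranged from 0.564 to 155 kb. The median distance between neighbouring centres was 3.30 kb at Pde2a, 7.11 kb at Cyth1, 12.2 kb at Zmiz1, 12.3 kb at Med13l, 16.0 kb at Cmip and 29.0 kb at Hivep3. Over the 64 neighbouring pairs of the 6 genes it was 11.2 kb, and over 2803 pairs assigned to 1 gene elsewhere it was 12.8 kb. The latter are pairs at genes with 2 or more sites, most of which have few. Pde2a and Cyth1 were the shortest of the 6 genes.

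**Figure D4:**
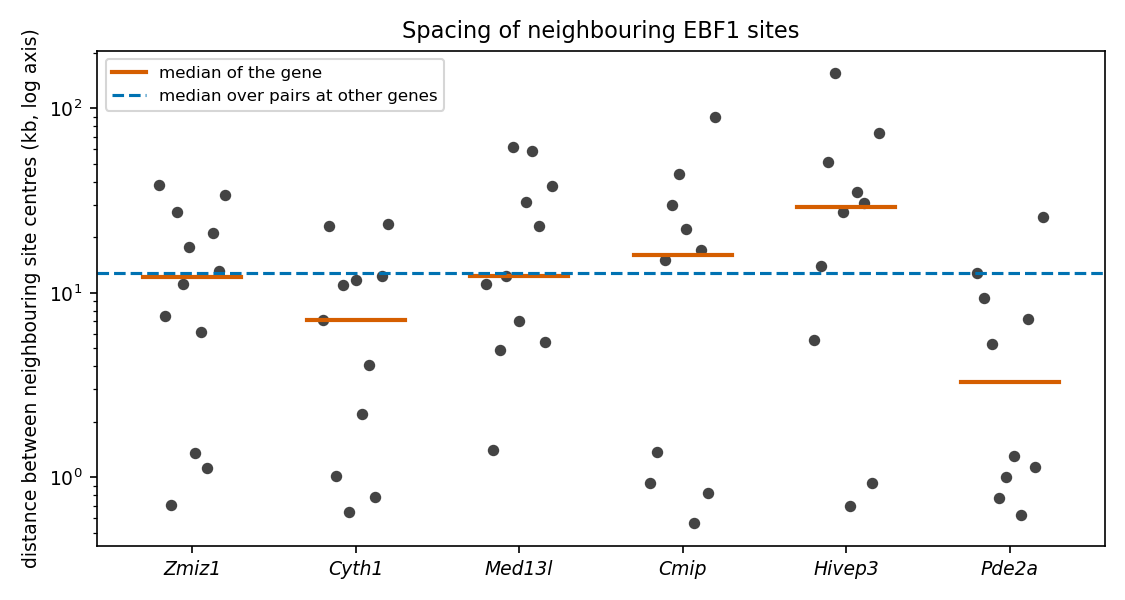
Distance between each pair of neighbouring site centres in kb on a log axis, by gene, with the median of each gene as a bar and the median of 12.8 kb over pairs at other genes as a dashed line. Pde2a lies lowest with a median of 3.30 kb and Hivep3 highest with 29.0 kb.

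With clusters defined as 3 or more sites with under 12500 bp between each and the next, 35 of the 70 sites (50.0%) were in a cluster, against 15.4% of all listed sites. Genes chosen for many sites will hold more clusters, so nothing is read from this difference. The 35 belonged to 7 clusters: 9 of the 11 Pde2a sites in 1 cluster, 11 of the 12 Cyth1 sites in 2, 7 of the 13 Zmiz1 sites in 2, 5 of the 12 Med13l sites in 1 and 3 of the 11 Cmip sites in 1. The clusters of 9 at Cyth1 and Pde2a were the only ones of that size among 327 clusters in the list, and 1 cluster, of 12 sites, was larger. These sizes rest on the cut, and with a slightly wider one the Pde2a cluster would take in 1 more site. Both clusters of 9 contained all classes, with 5 YmA-ind sites each, 3 YmA-dep and 1 CTD-ind at Cyth1, and 1 YmA-dep and 3 CTD-ind at Pde2a. One Zmiz1 cluster, at the 5′ end, was CTD-ind throughout (3 sites).

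Neighbouring sites had the same class in 30 of 64 pairs (46.9%, 34.3 to 59.8%), against 46% of pairs at other genes. The order of classes was thus about as uniform along the 6 genes as elsewhere in the list. By gene, 7 of 10 pairs agreed in class at Cmip, 7 of 12 at Zmiz1, 6 of 11 at Med13l, 5 of 11 at Cyth1, 3 of 10 at Pde2a and 2 of 10 at Hivep3. Pairs of a CTD-ind with a YmA-ind site were the most frequent kind (22, 34.4%), followed by pairs of YmA-ind sites (21, 32.8%). At other genes these kinds had nearly the same shares, 34.5% and 32.3%. Centres under 1 kb apart were found in 10 pairs, 3 at Cmip, 2 each at Cyth1, Hivep3 and Pde2a and 1 at Zmiz1. Of these 10 close pairs 3 had the same class (30.0%, 6.67 to 65.2%), against 99 of 191 (51.8%) at other genes, a value within that interval. In 2 of the 7 mixed pairs a YmA-dep site took part. These were the sites 0.784 kb apart in Cyth1, with a CTD-ind partner, and those 0.627 kb apart in Pde2a, with a YmA-ind partner at the Mir139 site.

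How far the number of sites rested on the distance limit differed by gene. Hivep3 and Pde2a kept 11 sites from sites inside the gene only to no limit. Cyth1 went from 10 to 12, Cmip from 9 to 11, Zmiz1 from 11 to 21 and Med13l from 6 to 13. With all annotated genes admitted rather than coding genes only, Zmiz1 had 12 sites, Med13l 7 and Hivep3 10. Counting sites inside the gene only, Zmiz1, Hivep3 and Pde2a shared the highest number of all coding genes (11), Cyth1 had rank 4 (10), and Med13l had rank 24 (6). Just below the threshold of 11, Arhgef3, Foxo1, Irf2bp2, Msi2, Sorcs2 and St3gal1 had 10 sites, of which 10, 3, 0, 10, 10 and 2 lay inside. B3gnt2, Cplx2, Gse1, Hip1, Prkce, Rai1, Shb and Trio had 9. A difference of 1 site between 10 and 11 separates the listed genes from these.

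**Figure D5:**
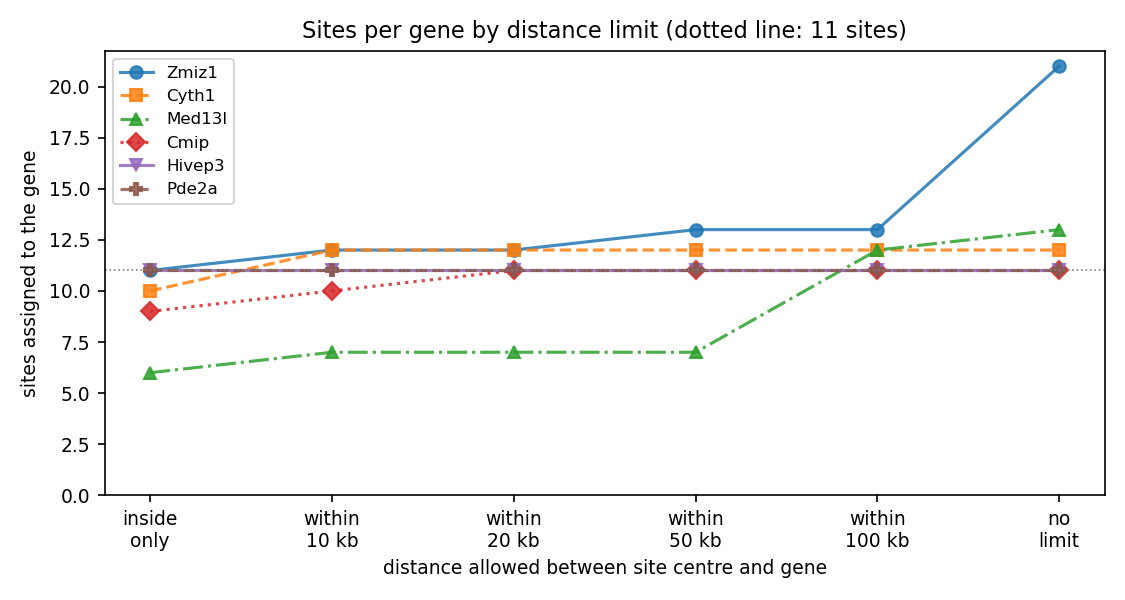
Number of sites assigned to each of the 6 genes by the largest distance allowed between site centre and gene. Hivep3 and Pde2a stay at 11 throughout, Med13l rises from 6 to 13, and Zmiz1 reaches 21 with no limit.

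The coding genes next to the 6 that are named here had 0 to 5 sites. On the lower and higher coordinate side these were Rps24 (0 sites) and Ppif (0) for Zmiz1, Dnah17 (2) and Usp36 (2) for Cyth1, and Spring1 (4) and Tbx3 (1) for Med13l. For Hivep3 they were Guca2b (1) and Edn2 (0) and for Pde2a Arap1 (4) and Art2b (0), and on the higher side of Cmip lay Plcg2 (5). The 4 Arap1 sites lay inside that gene, 9.11 kb from Pde2a. Rps24 lay 961 kb from Zmiz1, so that the sites up to 100 kb upstream of Zmiz1 had no nearer coding gene.

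Relatives of the 6 genes, taken with the Mediator kinase module partners of Med13l and with Maf, carried sites in 17 of 40 cases (42.5%). Over all coding genes the share was 19.6%. The highest number among the 40 was 5. Of the 2 paralogs of Hivep3, Hivep2 had 5 sites (3 YmA-ind, 1 CTD-ind, 1 YmA-dep), and Hivep1 had 0. Among cytohesins Cyth3 had 2, Cyth4 had 1 and Cyth2 had 0. In the Mediator kinase module Med13, the paralog of Med13l, had 2 sites outside the gene and Cdk19 had 1, while Med12, Med12l, Cdk8 and Ccnc had 0. Pias2 and Pias4 had 1 each, and Zmiz2, the paralog of Zmiz1, Pias1 and Pias3 had 0. Of 23 other phosphodiesterase genes 10 had a site: Pde4c and Pde8a 4 each, Pde4a, Pde4b, Pde4d and Pde10a 2 each, and Pde3b, Pde6d, Pde8b and Pde9a 1 each. Of the 4 Pde4c sites 3 were YmA-dep. Maf, the gene for which Cmip is named, had 0. Several genes of these lists are long, and length was not matched.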

How the data were processed

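The deposited list belongs to the EBF1 ChIP library with EBF1 wt and gives site borders in bp, another kind of value than a count or signal, per the file headers. The submitters' processing notes name the tools Bowtie2, deepTools and SAMtools and the build GRCm38 (mm10). For the caller of peaks, its thresholds, the 300 bp width and the class step, the sources used here give nothing. Positions were made 1-based. Gene spans came from RefSeq GRCm38.p6, without 345 genes of other scaffolds. A site inside several coding genes went to the shortest. Starts and strands came from the RefSeq promoter table (250 bases before to 50 after a start); it has no chromosome 18, whose sites stayed out of distances to starts. Exons were not used. Python 3.11.15, pandas 2.3.3 and SciPy 1.17.1 were used. The assignment was checked on sites planted at 200 genes, all given back. Members, lists and alternatives were chosen with earlier results of these data known. Named genes are the 6, their relatives, partners and neighbours, and genes with 9 or more sites. One neighbouring gene is not reported here.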

Additional observations from a re-analysis of the deposited data

How the results depend on the processing

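Of 98 alternative values, 89 stayed within their interval or within 1.5 times the reported count, and 9 moved. Many settings recount the same sites or a part of them against wide intervals, so this is a weak check. Sites of the 6 genes in clusters numbered 16 with gaps under 5 kb, where 5.51% of all sites were in one, and 54 with gaps under 25 kb (29.2% of all sites), against 35. The other 7 that moved were counts per gene: Zmiz1 with no limit (21) and Med13l under 6 settings (6 or 7). Fewer sites are admitted by construction with shorter limits. With sites under 1 kb apart counted as 1, the 6 genes had 60 sites and 2 of them, Zmiz1 and Med13l, still had 11 or more. Leaving out each gene in turn, chosen after the data were seen, kept each class share within its interval. The planned motif searches over whole sites were not run, since no genome sequence was used here. No paired analysis was possible because 1 library entered. Depth is unknown, so a lack of listed sites is no measure of absent binding.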
